A study of Mus musculus with 48 samples.

Results

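Tox and Tox2 encode a pair of related DNA-binding proteins, and the chromatin around both genes was followed here by ATAC-seq, which counts where a transposase can cut open DNA. Peaks, the regions the authors scored as open, were assigned to Tox or Tox2 when they overlapped the body of that protein-coding gene. A peak over several genes went to the gene with the boundary nearest to its middle, and a peak over none went to the nearest gene body within 100 kb. By this rule 34 of 53868 peaks belonged to the pair, 27 to Tox and 7 to Tox2. The members are numbered by coordinate within each gene.

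TOX proteins carry an HMG box, a fold that binds DNA by its shape more than by its letters. In CD8 T cells that meet antigen without end, as in tumors and chronic infection, calcineurin and NFAT induce Tox, and TOX with TOX2 is known for setting up and keeping the exhausted chromatin state and for the survival of exhausted cells. Both genes are active in precursor as well as terminal exhausted cells, so open chromatin at either locus is not a mark of one stage alone.

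The series holds 48 libraries of tumor-infiltrating CD8 T cells in 21 groups, 15 groups of 2 and 6 groups of 3. Every group shared Cas9, the OT-1 receptor for an ovalbumin peptide, CD45.1, a lentivirus with an ametrine reporter carrying a guide RNA, and growth in B16-OVA melanoma, a mouse tumor line that makes ovalbumin. The cells were transferred into young or aged mice before the tumor cells were given and were taken out on day 15, and tumors of several mice were pooled into each library, with 5000 to 50000 cells as input. The guide was OTC, used as the control, Zfp219 or Dusp5. Cells were sorted on Slamf6, a surface protein of precursor cells, and Tim-3, a receptor of exhausted cells encoded by Havcr2. Progenitor exhausted cells (Tprog) were Slamf6+ Tim-3-, transitory cells (Ttran) Slamf6+ Tim-3+, terminally exhausted cells (Tterm) Slamf6- Tim-3+, and Ttad cells Slamf6- Tim-3-. Aged hosts gave 24 libraries over 3 guides and 4 states, all groups of 2, and young hosts gave 24 libraries over 3 guides and 3 states, with no Ttad group, Tprog in 2 libraries and the other states in 3. The transferred cells, not the host's own T cells, were read, and what sets a host apart beyond young or aged was not given in the labels used here.

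Depth, measured as reads in peaks, ran from 5638413 to 29942755 per library (median 14691505), from 5638413 to 16159054 in aged and from 6589023 to 29942755 in young hosts. Peaks at 7 of 9 CD8 T cell marker genes summed to 15495 to 20397 normalized reads per library, while Trac and Trbc1 had no assigned peak. Peaks of 4 of 7 melanoma markers summed to 913 to 1633, with none assigned to Tyr, Tyrp1 or Dct. Peaks of 4 of 7 myeloid markers summed to 2015 to 2958, with none for Lyz2, Csf1r or Adgre1. The only B cell marker with a peak, Pax5 (1 of 5), gave 280 to 672, and fibroblast markers (2 of 4) gave 518 to 764. Peaks of 4 of 4 NK cell markers summed to 5120 to 7007. Of these 29 peaks, 14 belong to Eomes, which is also in the list of exhaustion genes below, so the sum does not mark NK cells alone. Peaks of 2 of 3 CD4 and regulatory T cell markers summed to 1027 to 1760, with none for Foxp3. The lists hold unequal numbers of peaks: 44 for CD8 T cells, 7 for melanoma, 13 for myeloid and 5 for B cells. The NK list has 29, CD4 and regulatory T cells 6 and fibroblasts 5, so the sums do not compare directly. Per kb of peak, the median library had 335 normalized reads for CD8 T cells, 201 for melanoma and 205 for myeloid cells. It had 94.5 for B cells, 201 for NK cells, 232 for CD4 and regulatory T cells and 144 for fibroblasts. The part of these levels in the results was not tested. In a bulk sample, fewer cells of a type and less signal per cell cannot be told apart. The column headers number the libraries separately within each host age, 24 numbers in each and all 24 shared, so host age cannot be told apart from any difference between these 2 sets of libraries. At the targeted genes, none of 14 tests of the 2 Zfp219 peaks was called, and 6 of 119 tests of the 17 Dusp5 peaks were called lower. A peak outside the guide's site does not check the edit.

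Tox spans chr4:6686353-6991557 (mm10 coordinates of the files, 305 kb) and Tox2 chr2:163203058-163324172 (121 kb). Of the Tox peaks, 25 overlapped the gene body, and of the Tox2 peaks, 5 did. Tox peaks 1 (chr4:6663533-6664254) and 2 (chr4:6681539-6683027) lay 22099 and 3326 bp outside the gene, and Tox2 peaks 1 (chr2:163154798-163156375) and 2 (chr2:163164356-163166932) lay 46683 and 36126 bp outside. The annotation used here gives gene boundaries but no exons, so body peaks could not be split into exonic and intronic ones. The strongest Tox peak, peak 27 (chr4:6988930-6991618), covered the upper boundary of the gene. Tox2 peak 3 (chr2:163202836-163204146) covered the lower boundary of Tox2 and overlapped 3 of its promoter windows, the last of them only in part. Only 45 of 15017 genes with any peak had more peaks than Tox, while 1435 had more than Tox2, and the median gene had 2. Per 100 kb of gene body this came to 8.19 peaks in Tox and 4.13 in Tox2.

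Promoter windows of Tox2 are shown because peak 3, at the first of them, separated progenitor from terminal cells in every arm. RefSeq (GRCm38.p6) gives 5 Tox2 windows, all on the plus strand, and the Tox entry was not used here. The first window holds the 250 bases before the start at chr2:163203127 and has a GC content of 75.2%, against a median of 52.4% over 32851 windows of 27025 genes. The stretch below is its part upstream of the gene boundary, chr2:163202877-163203057, and capitals mark an ETS core, CCGGAA.
Tox2 first promoter window: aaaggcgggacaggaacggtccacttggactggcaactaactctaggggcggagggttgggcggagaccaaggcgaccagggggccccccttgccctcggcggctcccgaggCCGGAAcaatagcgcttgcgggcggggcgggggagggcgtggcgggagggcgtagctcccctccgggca
A further start lies 22.4 kb inside the gene, at chr2:163225453, and its window, chr2:163225203-163225452, has a GC content of 52.8%. Capitals mark a match to the TCF/LEF core CTTTGA, read here on the other strand as TCAAAG.
Tox2 inner promoter window: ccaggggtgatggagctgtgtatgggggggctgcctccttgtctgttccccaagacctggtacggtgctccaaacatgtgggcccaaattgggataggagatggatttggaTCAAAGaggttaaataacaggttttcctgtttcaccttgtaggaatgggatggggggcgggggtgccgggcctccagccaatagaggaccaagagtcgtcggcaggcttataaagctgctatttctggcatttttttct
No peak overlapped this inner window, and the nearest, Tox2 peak 4, lay 3314 bp away. Motifs were searched on both strands, and the share of all promoter windows with a match was 12% for the ETS core CCGGAA, 18.6% for the NFAT core TGGAAA, 6.75% for the AP-1 site TGANTCA, 16% and 13.8% for the TCF/LEF cores TTTGAA and CTTTGA, 14% for the RUNX core TGTGGT and 1.34% for the NR4A site AAAGGTCA. The other windows under peak 3 held none of these letters. A match is a run of letters, not a shown binding site.

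Levels are given as normalized reads, the authors' reads per peak divided by a size factor of the library. Mean levels over all libraries ran from 5.41 to 646 normalized reads across the Tox peaks (median 106) and from 13.6 to 533 across the Tox2 peaks (median 276), against a median of 93.9 over all peaks. Reads were present in every library at 25 of 27 Tox and 6 of 7 Tox2 peaks. The highest group exceeded the lowest by a median of 2.64-fold over the Tox peaks and 2.23-fold over the Tox2 peaks, close to 2.48-fold over all peaks.

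Summed over its 27 peaks, Tox was most open in Tprog groups, which took the 5 highest ranks. The aged Dusp5 Tprog group led with 5629 ± 109 normalized reads (mean ± SD, n = 2), ahead of young Dusp5 Tprog with 5504 ± 198 (n = 2), young Zfp219 Tprog with 5233 ± 70.8 (n = 2), aged OTC Tprog with 5076 ± 73.0 (n = 2) and young OTC Tprog with 4923 ± 261 (n = 2). The last Tprog group, aged Zfp219 with 4745 ± 31.1 (n = 2), stood below young Dusp5 Tterm with 4901 ± 156 (n = 3). The aged Ttad groups stood next to it, Dusp5 at 4735 ± 269 and OTC at 4719 ± 11.1 (n = 2 each), with Zfp219 Ttad lower at 4167 ± 29.7 (n = 2). The lowest were aged Dusp5 Tterm with 3701 ± 123 and aged Zfp219 Tterm with 3459 ± 7.63 (n = 2 each), and the whole range was 1.63-fold. The Tprog mean was 1.23, 1.37 and 1.52 times the Tterm mean in aged OTC, Zfp219 and Dusp5 cells, and 1.15, 1.16 and 1.12 times in young ones. In 12 of the 20 steps from one group to the next in this order, the libraries overlapped.

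Tox2 followed another order, with transitory cells of young hosts at the top. Young OTC Ttran had 2468 ± 80.7 normalized reads over the 7 peaks (n = 3), young Dusp5 Ttran 2247 ± 56.3 (n = 3), young Zfp219 Ttran 2234 ± 145 (n = 3) and young OTC Tprog 2230 ± 58.7 (n = 2). Aged OTC Tterm was lowest with 1224 ± 18.4 (n = 2), below aged Zfp219 Ttad with 1319 ± 31.5 and aged Dusp5 Ttad with 1407 ± 34.9 (n = 2 each). The range was 2.02-fold, and libraries of neighbouring groups overlapped in 12 of 20 steps. Within each guide, Ttran exceeded Tterm by 1.43, 1.31 and 1.36 times in aged OTC, Zfp219 and Dusp5 cells and by 1.23, 1.15 and 1.25 times in young ones. Per kb of peak, group means ran from 117 to 191 normalized reads for Tox and from 139 to 280 for Tox2. Over the 21 group means, the summed levels of the 2 genes gave a Pearson r of 0.17 (Spearman rho 0.17), a description over groups that share libraries' depth and normalization.

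**Figure D1:**
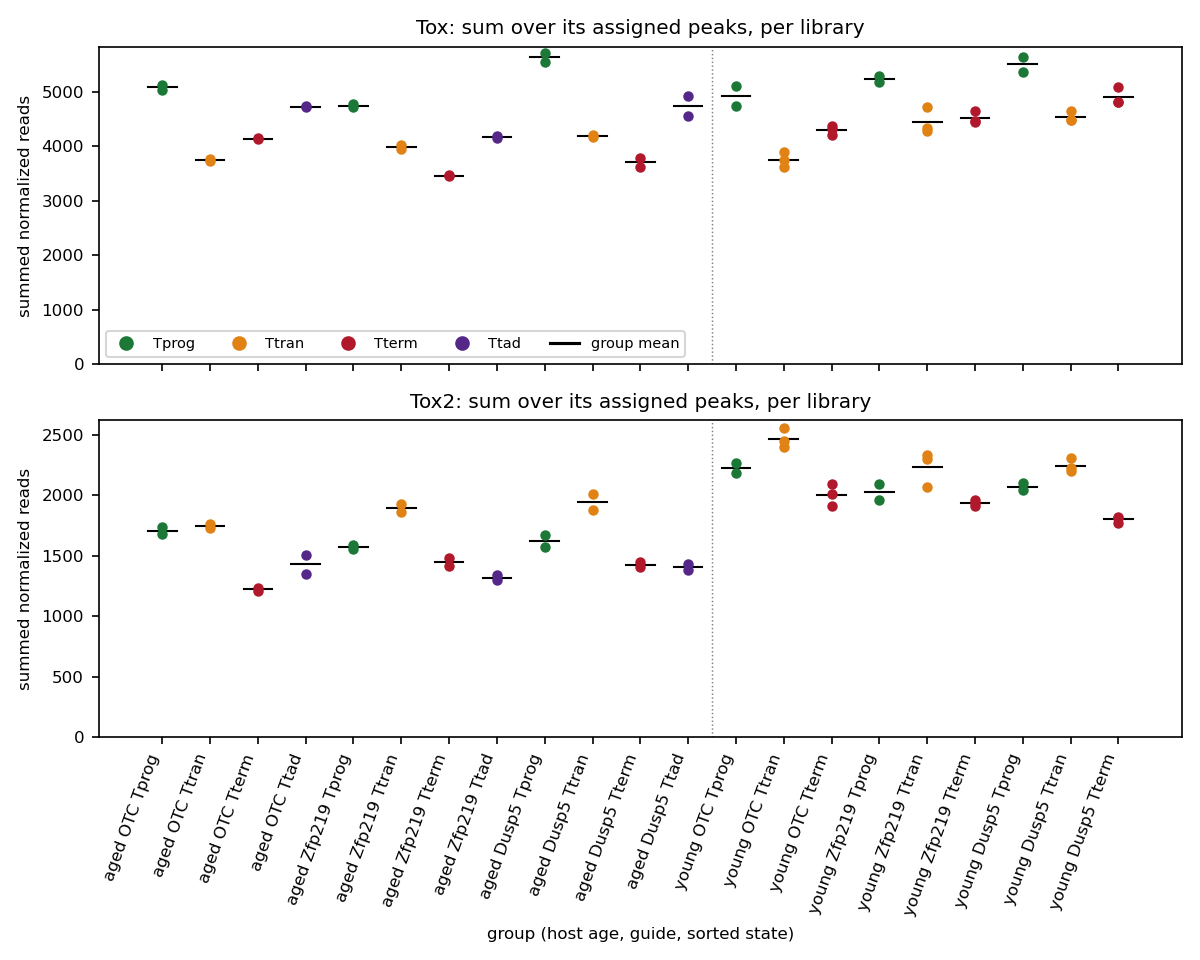
Summed normalized reads over the 27 Tox peaks and the 7 Tox2 peaks (y axes) in each library (points, coloured by state) of the 21 groups (x axis), with a black line at each group mean. Tprog groups take the 5 highest ranks for Tox, up to 5629, and young Ttran groups the highest for Tox2, up to 2468.

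Differences between groups were tested peak by peak on log2(normalized reads + 1) with limma over all 48 libraries and all 53868 peaks. A peak is called higher or lower when its Benjamini-Hochberg adjusted p, taken over all peaks, is under 0.05, and differences are in log2 units on that scale, which understates the change of weak peaks. Nothing in the labels says whether mice were split into pools at random, so the p-values measure the spread between pooled libraries. Beside each count stands the share of all peaks called in either direction in the same comparison, the background against which to read it.

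Progenitor cells were more open than terminal cells at a set of Tox peaks in the upper part of the gene and at the Tox2 promoter. Tox peak 2, outside the lower boundary, was also called higher in Tprog in 5 of the 6 arms of host age and guide. Its differences ran from 0.17 to 0.67 over all 6. In aged OTC cells 6 Tox peaks were higher and 1 lower in Tprog than in Tterm, and 3 Tox2 peaks were higher and 0 lower, where 20.1% of all peaks were called. In young OTC cells 5 Tox peaks were higher and 1 lower, and 2 Tox2 peaks were higher, where 26.5% of all peaks were called. The called share of either gene was thus near that of all peaks, Tox2 in aged cells aside, where 3 of 7 is a small count. The median difference over the Tox peaks was 0.25 in aged and 0.26 in young cells, with 24 and 18 of 27 above 0, and over the Tox2 peaks 0.55 and 0.10, with 6 and 5 of 7 above 0. Over all peaks it was 0.01 in both ages.

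Tox peaks 22 (chr4:6934488-6935792) and 23 (chr4:6940613-6941684), 248.8 and 254.8 kb above the lower boundary, carried the most stable part of this difference. Peak 22 had 331 and 384 normalized reads in aged OTC Tprog against 153 and 159 in Tterm, and 217 and 250 in young OTC Tprog against 125, 97.5 and 97.3 in Tterm. The groups did not overlap in either age. The difference was 1.19 ± 0.20 (SE) in aged cells (limma, adjusted p = 2.2e-06) and 1.13 ± 0.18 in young cells (adjusted p = 5.7e-07), and it was called without any single library. Peak 23 had 291 and 350 in aged OTC Tprog against 165 and 191 in Tterm, and 249 and 214 in young Tprog against 89.7, 127 and 127. It was higher by 0.85 ± 0.22 in aged cells (limma, adjusted p = 0.0028) and by 1.02 ± 0.20 in young cells (adjusted p = 4.1e-05). The aged call was lost without Tprog replicate 2 or Tterm replicate 1, with an adjusted p of up to 0.072. Across the 21 group means these neighbouring peaks had a Pearson r of 0.94, the highest of 351 pairs of Tox peaks, whose median was 0.38.

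Peak 26 (chr4:6970464-6970895), 284.3 kb above the lower boundary, was a weak peak that was highest in progenitor cells. It had 22.6 and 28.4 normalized reads in aged OTC Tprog against 2.18 and 1.83 in Tterm, and 46.6 and 39.4 in young OTC Tprog against 1.26, 3.15 and 2.25. Aged Ttran had 6.02 and 17.5 and aged Ttad 6.71 and 12.3, between both, while young Ttran had 3.09, 1.56 and 1.06. The Tterm values rest on 2 to 4 reads per library, where a count of 0 would allow up to 3. The difference was 3.13 ± 0.90 in aged cells (limma, adjusted p = 0.0066) and 3.81 ± 0.82 in young cells (adjusted p = 0.00015). With a pseudocount of 8 these values were 1.74 and 2.32, so the fold of this peak depends on the pseudocount, while its direction did not. The aged call was lost without Tprog replicate 2 or Tterm replicate 2 (adjusted p of up to 0.063).

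At the strong peak over the upper Tox boundary the states differed little. Peak 27 had 615 and 775 normalized reads in aged OTC Tprog, 520 and 548 in Ttran, 573 and 517 in Tterm and 605 and 612 in Ttad. In young OTC cells it had 585 and 727 in Tprog, 548, 627 and 608 in Ttran and 650, 727 and 759 in Tterm, so the young states overlapped. Tprog was higher than Tterm by 0.34 ± 0.11 in aged cells (limma, adjusted p = 0.019), a call lost without Tprog replicate 2 or Tterm replicate 2, with an adjusted p of up to 0.45. In young cells the difference was -0.12 ± 0.10 (limma, adjusted p = 0.41). Peak 20 (chr4:6901278-6904000), the next strongest with a mean of 529, was higher by 0.30 ± 0.11 in aged Tprog (limma, adjusted p = 0.043), and leaving out any of the 4 libraries ended that call, with an adjusted p of up to 0.18.

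A few Tox peaks went the other way, or were called in OTC cells of 1 age only. Peak 8 (chr4:6833655-6834908), in the middle of the gene, had 57.3 and 87.3 normalized reads in young OTC Tprog, 98.0, 94.6 and 102 in Ttran and 167, 195 and 147 in Tterm. No Tprog library reached the Ttran range, and no Ttran library the Tterm range. Tprog was lower than Tterm by a difference of -1.24 ± 0.21 (limma, adjusted p = 1.7e-06), and in aged OTC cells the difference was -0.38 ± 0.23 (adjusted p = 0.27). Peak 11 (chr4:6856680-6858981) had 157 and 188 in aged OTC Tprog against 248 and 293 in Tterm, a difference of -0.65 ± 0.18 (limma, adjusted p = 0.005), lost without Tprog replicate 1 or Tterm replicate 2 (adjusted p of up to 0.12). Peak 14 (chr4:6870343-6870780) had 86.7 and 107 in young OTC Tprog against 44.9, 41.7 and 46.7 in Tterm, a rise of 1.10 ± 0.29 (limma, adjusted p = 0.0023) that was lost without Tprog replicate 2 (adjusted p = 0.064). Peak 25 (chr4:6957961-6958828) had 91.7 and 63.9 in aged OTC Tprog against 30.5 and 35.7 in Tterm, a rise of 1.19 ± 0.41 (limma, adjusted p = 0.026). That call was lost without Tprog replicate 1, Tterm replicate 1 or Tterm replicate 2 (adjusted p of up to 0.25), and with quantile normalization. A call at 1 age is not a difference between ages. Over the 6 arms of host age and guide, Tprog was higher by 0.42 to 1.43 at peak 14 and 0.33 to 1.21 at peak 25. The aged minus young OTC difference was not called at peak 14 (-0.31, limma, adjusted p = 0.84) or peak 25 (0.60, adjusted p = 0.72).

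At Tox2, the promoter peak set progenitor and transitory cells apart from terminal ones. Peak 3 had 439 and 446 normalized reads in aged OTC Tprog, 475 and 442 in Ttran, 233 and 251 in Tterm and 270 and 315 in Ttad. In young OTC cells it had 514 and 498 in Tprog, 467, 479 and 448 in Ttran and 315, 353 and 286 in Tterm. In each age both Slamf6+ states lay above Tterm without overlap, and in aged hosts Ttad lay above Tterm and below both others. Tprog exceeded Tterm by 0.87 ± 0.14 in aged cells (limma, adjusted p = 4.5e-07) and 0.67 ± 0.13 in young cells (adjusted p = 1.3e-05), and Ttran exceeded Tterm by 0.92 ± 0.14 (adjusted p = 2.8e-06) and 0.55 (adjusted p = 0.00035). None of these calls was lost without any single library. Peak 7 (chr2:163298915-163299284), a weak peak inside the gene, had 20.8 and 39.4 in young OTC Tprog against 2.53, 1.57 and 5.06 in Tterm, a difference of 2.96 ± 0.73 (limma, adjusted p = 0.00093). In aged OTC cells it had 20.4 and 30.2 against 12 and 1.83, a difference of 2.09 that missed the threshold (adjusted p = 0.051). With a pseudocount of 8 the young difference was 1.75, so its size too depends on the pseudocount. Peak 4 (chr2:163228766-163229750), the nearest to the inner promoter window, had 265 and 310 in aged OTC Tprog against 202 and 184 in Tterm, a rise of 0.57 ± 0.18 (limma, adjusted p = 0.012), lost without Tprog replicate 2 or Tterm replicate 2 (adjusted p of up to 0.16).

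**Figure D2:**
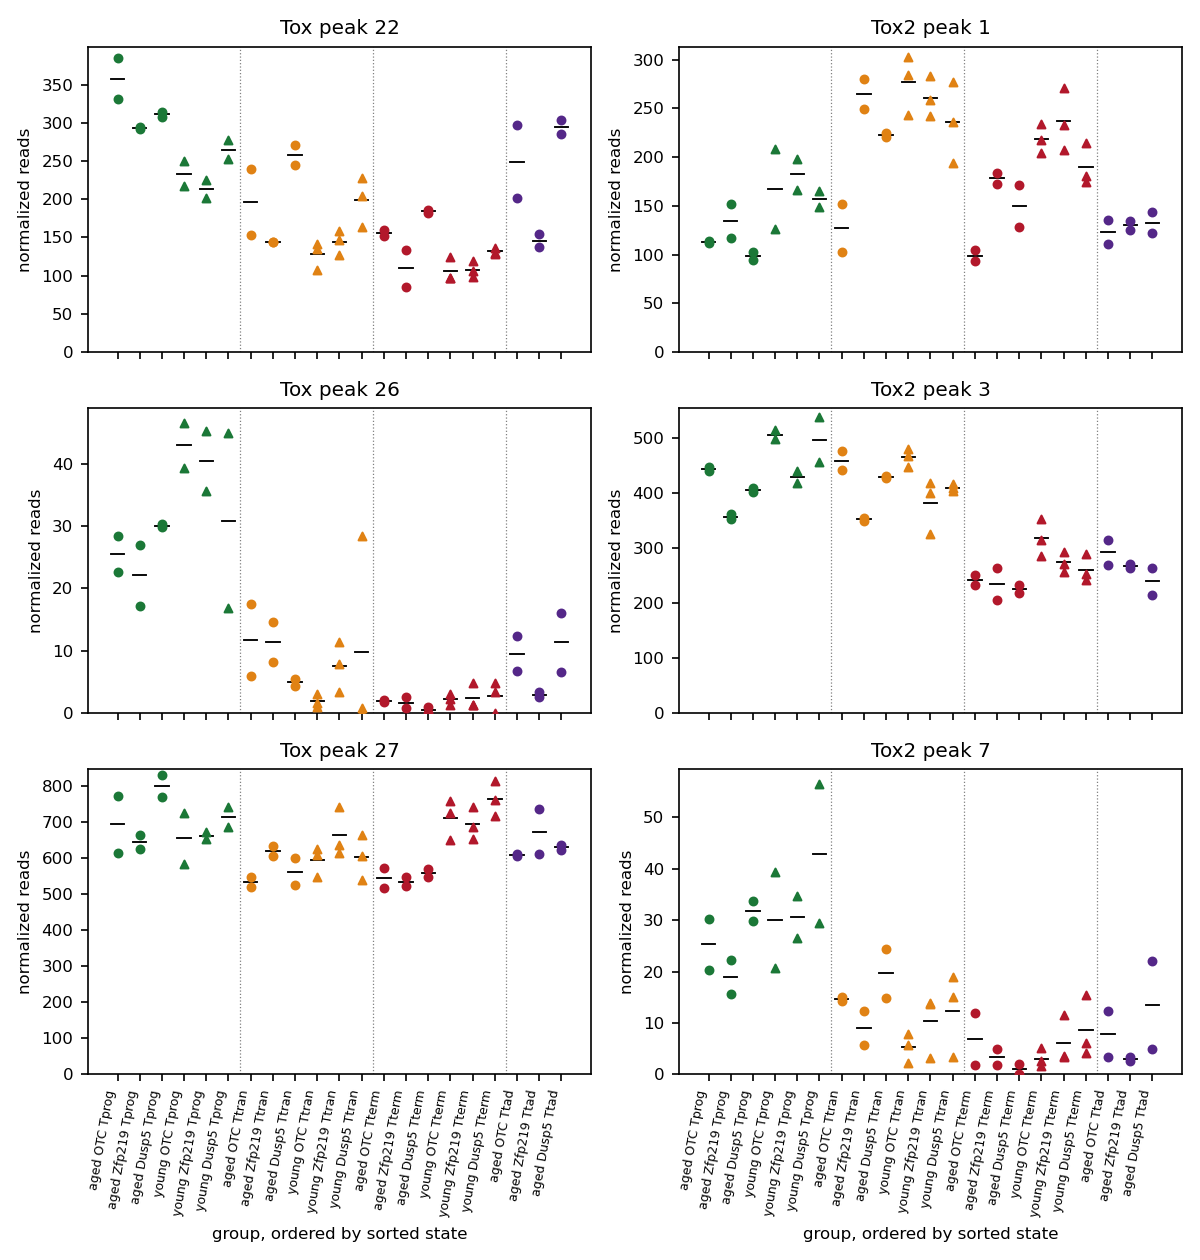
Normalized reads (y axes) of Tox peaks 22, 26 and 27 and Tox2 peaks 1, 3 and 7 in each library of each group (x axes), with circles for aged and triangles for young hosts and a line at each group mean. Tox peak 26 reaches 46.6 in young OTC Tprog and stays at 1.26 to 3.15 in young OTC Tterm, while Tox peak 27 is high in all states.

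In the guide arms, too, more Tox peaks were higher than lower in Tprog. In aged Zfp219 cells 10 Tox peaks were higher and 0 lower, and 2 Tox2 peaks were higher, where 18.8% of all peaks were called. In aged Dusp5 cells 13 Tox peaks were higher and 0 lower, and 2 Tox2 peaks were higher and 1 lower, with 22.9% of all peaks called. In young Zfp219 cells 8 Tox peaks were higher and 1 lower, with 2 and 1 at Tox2 and a background of 26.8%, and in young Dusp5 cells 7 were higher and 0 lower, with 2 and 1 at Tox2 and 29.8%. Median differences over the Tox peaks were 0.36 in aged Zfp219, 0.57 in aged Dusp5, 0.17 in young Zfp219 and 0.18 in young Dusp5 cells. The aged Dusp5 arm had the highest share, 13 of 27 against 22.9%, and its strong peaks were among them, with peak 20 at 634.6 and 633.0 in Tprog against 359 and 331 in Tterm, a rise of 0.88 ± 0.11 (limma, adjusted p = 5.5e-10). Peak 27 rose by 0.52 ± 0.11 in that arm (limma, adjusted p = 0.00018).

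Of the 34 peaks, 4 were higher in Tprog than in Tterm in all 6 arms of host age and guide, as were 3.01% of all peaks. They were Tox peak 22 (0.75 to 1.45), Tox peak 23 (0.85 to 1.06), Tox peak 26 (3.13 to 4.47) and Tox2 peak 3 (0.62 to 0.93). Tox2 peak 7 was higher in 5 arms, with 2.09 to 4.25 over all 6, and Tox peak 2 in 5. In aged Dusp5 Tterm peak 7 of Tox2 rests on 2 and 0 reads, and Tox peak 26 on 1 and 0, so the top of both ranges depends on the pseudocount. Over the 6 arms 17 of 27 Tox and 4 of 7 Tox2 peaks were higher in at least 1, against 26.9% of all peaks, while 8 of 27 Tox and 1 of 7 Tox2 peaks were called in none, against 45.4%. No test of these shares was run. Across the 21 group means, the 2 weak progenitor peaks, Tox peak 26 and Tox2 peak 7, had a Pearson r of 0.90. It was the highest of 189 pairs of a Tox with a Tox2 peak, whose median was 0.09. Both peaks are named for their rise in Tprog in these same groups, so the choice itself favours a high r. The difference of the difference, Tprog over Tterm in aged against young OTC cells, was called at 0 of 34 peaks by limma, where 2.32% of all peaks were called. At an unadjusted p under 0.05 it held 6 peaks, and edgeR called 1.

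**Figure D3:**
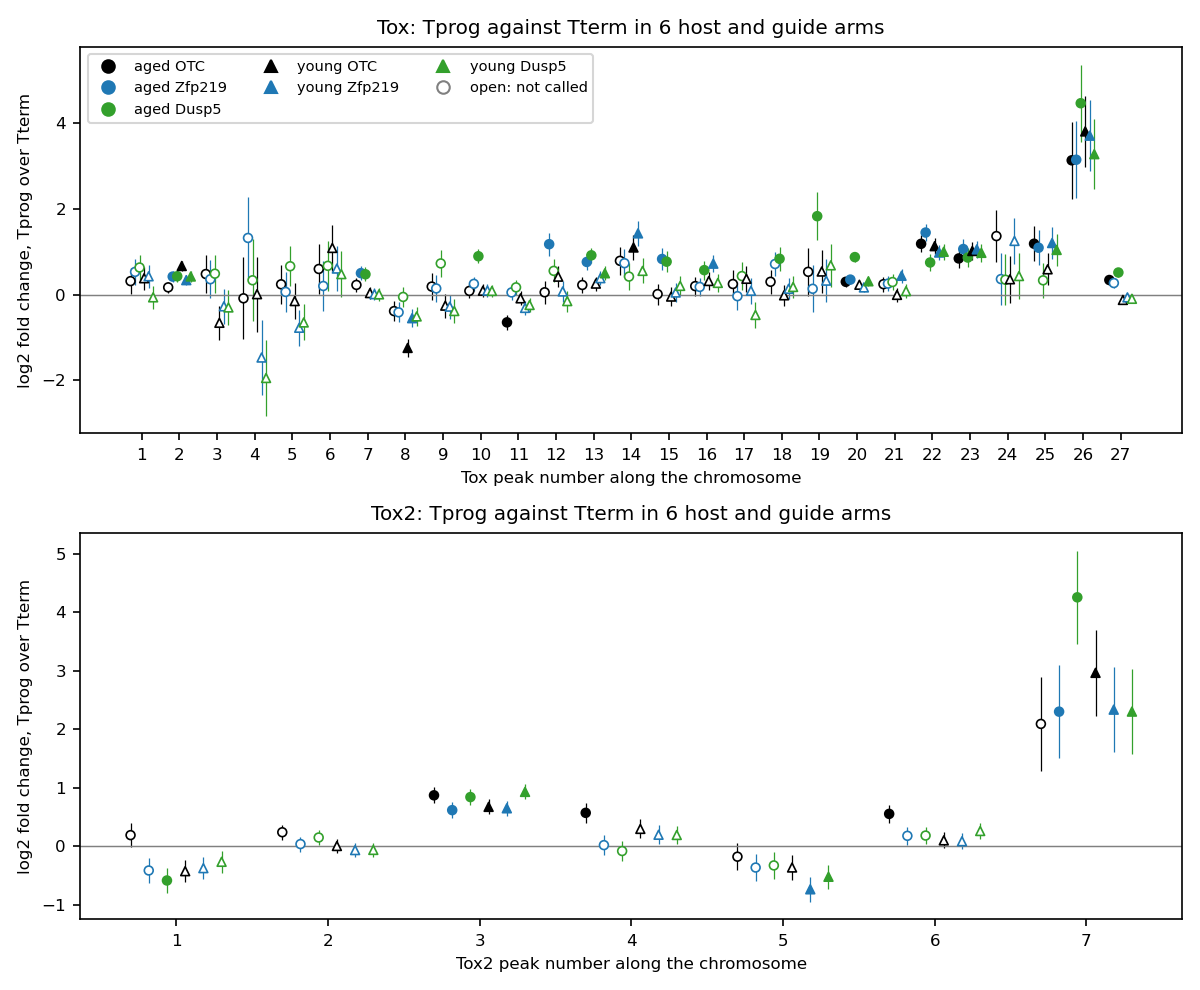
Difference in log2(normalized reads + 1) of Tprog over Tterm (y axes) for each of the 34 peaks (x axes) in 6 arms. Bars are ± SE, circles are aged and triangles young hosts, and symbols are filled where called. Tox peaks 22, 23 and 26 and Tox2 peak 3 are filled in all 6 arms.

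Transitory cells were less open than progenitor cells at Tox. In aged OTC cells 9 Tox peaks were lower in Ttran than in Tprog and 0 higher, where 17% of all peaks were called, and in young OTC cells 9 were lower and 0 higher, with 16.9%. The median difference was -0.43 and -0.47. Peak 22 had 153 and 239 normalized reads in aged and 141, 108 and 135 in young OTC Ttran, below every Tprog library of the same age, and was lower by differences of -0.89 ± 0.20 (limma, adjusted p = 0.00055) and -0.87 ± 0.18 (adjusted p = 0.0002). The aged call was lost without Ttran replicate 1 (adjusted p = 0.1). Peak 26 was lower in young Ttran by a difference of -3.98 ± 0.82 (limma, adjusted p = 0.00014) and had -1.21 ± 0.90 in aged cells (adjusted p = 0.4). Tox2 had 0 called peaks in this comparison in aged cells by limma and by edgeR, and 0 at an unadjusted p under 0.05. In young cells 1 Tox2 peak was lower and 2 were higher. Between Ttran and Tterm no Tox peak was called in aged OTC cells, where 3.22% of all peaks were called, 5 had an unadjusted p under 0.05 and edgeR called 0. In young OTC cells 4 Tox peaks were lower and 0 higher in Ttran, with 8.38%, and Tox2 had 2 higher peaks in aged and 1 in young cells.

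In aged OTC cells, Ttad lay between progenitor and terminal cells at the peaks with the clearest state differences. Against Tterm, 1 Tox peak was higher and 0 Tox2 peaks were called, where 7.28% of all peaks were called. At Tox2 1 peak had an unadjusted p under 0.05 and edgeR called 0. The Tox peak was peak 22, with 201 and 297 normalized reads in Ttad against 153 and 159 in Tterm, a rise of 0.64 ± 0.20 (limma, adjusted p = 0.032). It was lost without Ttad replicate 2, Tterm replicate 1 or Tterm replicate 2 (adjusted p of up to 0.45), and in a fit of the compared groups alone. Against Tprog, 1 Tox peak was higher and 1 Tox2 peak lower, with 6.55% of all peaks called. Tox2 peak 3 was lower in Ttad by a difference of -0.60 ± 0.14 (limma, adjusted p = 0.0023), a call lost without Ttad replicate 1 (adjusted p = 0.09). Tox peak 11 had 307 and 221 in Ttad against 157 and 188 in Tprog, a rise of 0.59 ± 0.18 (limma, adjusted p = 0.029), lost without Tprog replicate 1 or Ttad replicate 1 (adjusted p of up to 0.46) and in the compared groups alone. Against Ttran, 3 Tox peaks were higher in Ttad and 2 Tox2 peaks lower, with 7.74%.

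**Figure D4:**
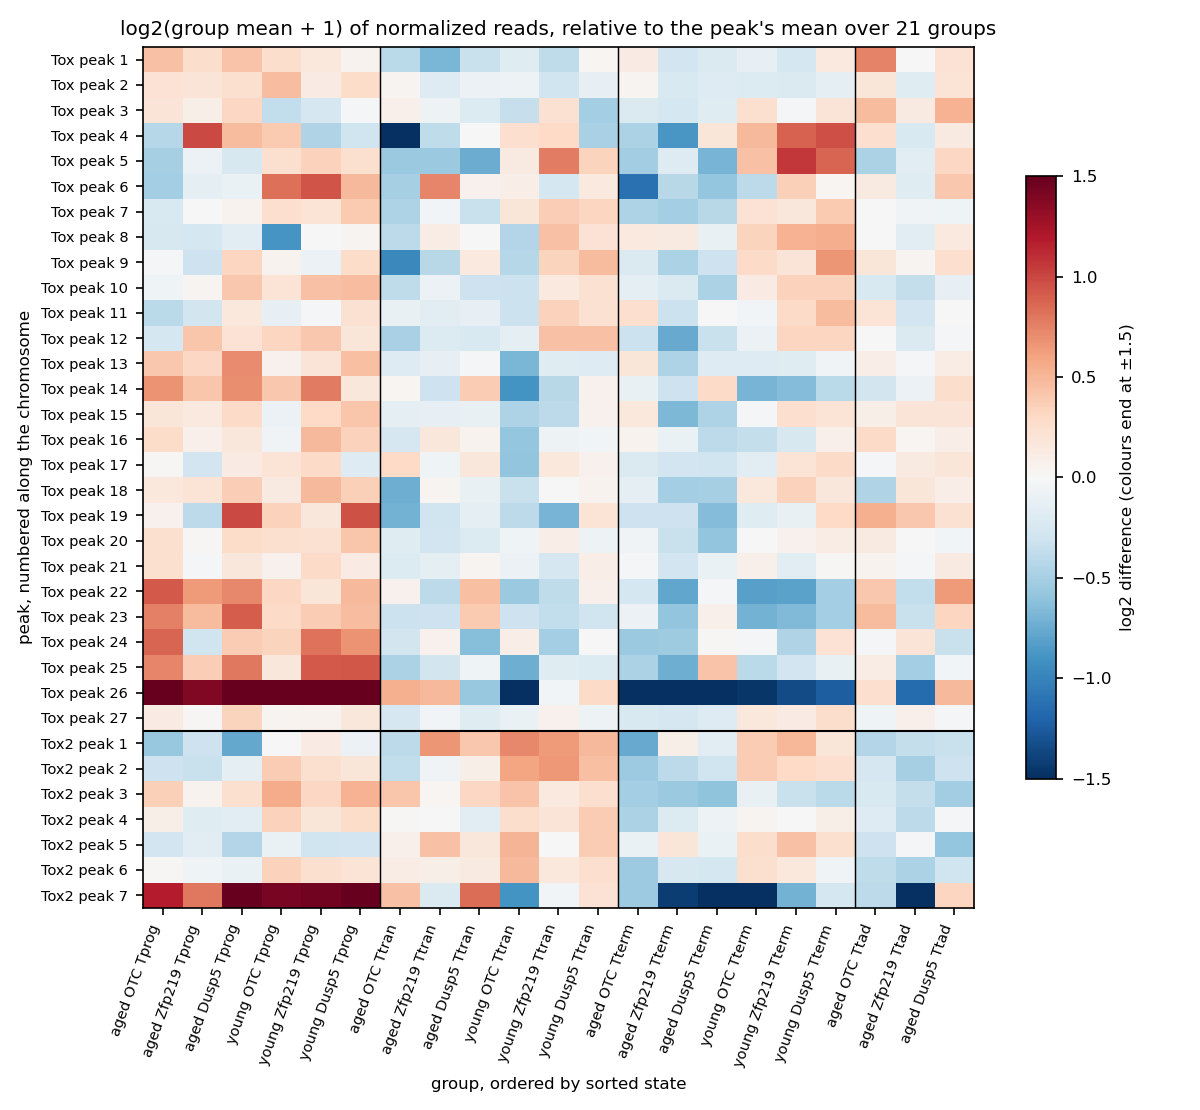
Mean level of the 34 peaks (y axis) in the 21 groups (x axis, ordered by state) as log2(mean + 1) relative to the mean of each peak, with colours ending at -1.5 and 1.5. Tox peaks 22, 23 and 26 are high in the Tprog groups, and Tox2 peak 2 is lower in every aged group mean (up to 529) than in every young one (from 564).

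Host age separated Tox2 more than Tox. In OTC cells, averaged over Tprog, Ttran and Tterm, 6 of 7 Tox2 peaks were lower in aged than in young hosts and 0 higher, where 36.5% of all peaks were called. Of the Tox peaks 5 were lower and 5 higher. The median difference was -0.33 over the Tox2 peaks, 0.03 over the Tox peaks and 0.00 over all peaks. By state, Tox had 1 lower and 2 higher peaks in Tprog, 1 and 4 in Ttran and 3 and 2 in Tterm, and Tox2 had 1, 3 and 5 lower peaks and 0 higher ones, where 15.4%, 18.3% and 18.9% of all peaks were called.

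Of the Tox2 peaks, the 2 outside the gene had the largest age differences. Peak 2 had 421 and 379 normalized reads in aged OTC Tprog, 409 and 357 in Ttran and 340 and 337 in Tterm. In young OTC cells it had 658 and 631 in Tprog, 712, 754 and 786 in Ttran and 645, 689 and 598 in Tterm. Every young library exceeded every aged one, also the aged Ttad libraries with 473 and 357. The mean was 374 ± 35.5 (SD, n = 6) in aged and 684 ± 63.7 (SD, n = 8) in young hosts, a difference of -0.86 ± 0.07 (SE; limma, adjusted p = 8.5e-19), and by state it was -0.69 in Tprog, -0.97 in Ttran and -0.92 in Tterm. Peak 1 had 112 and 114 in aged OTC Tprog, 102 and 151 in Ttran and 105 and 93.5 in Tterm, against 208 and 126 in young Tprog, 302, 285 and 243 in Ttran and 204, 234 and 217 in Tterm. Only young Tprog replicate 2, with 126, fell into the aged range. The means were 113 ± 20.2 (SD, n = 6) and 227 ± 54.1 (SD, n = 8), a difference of -0.93 ± 0.11 (SE; limma, adjusted p = 3.1e-11). Both differences were called without any single library. Peak 7, the weak one, had a difference of 0.65 (limma, adjusted p = 0.25).

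At Tox the age differences went both ways along the gene. Peak 7 (chr4:6817030-6818666) had 189 ± 17 normalized reads in aged OTC cells (SD, n = 6) against 287 ± 13.4 in young ones (SD, n = 8), with no overlap between ages, a difference of -0.61 ± 0.09 (SE; limma, adjusted p = 1.4e-08). The weak peaks 5 (chr4:6800225-6800726) and 6 (chr4:6811859-6812346) next to it were lower by differences of -0.88 ± 0.25 (limma, adjusted p = 0.0033) and -0.86 ± 0.32 (adjusted p = 0.024). Peak 5 was no longer called without aged Tterm replicate 2 (adjusted p = 0.078), and peak 6 in 5 of 14 such omissions (up to 0.16). Higher in aged cells were peak 22, with 237 ± 101 against 146 ± 56.8 (SD, n = 6 and 8), a rise of 0.59 ± 0.11 (SE; limma, adjusted p = 7.5e-06), and peak 14, with 86.2 ± 25.4 against 55.3 ± 27.1, a rise of 0.61 ± 0.17 (adjusted p = 0.0036). The wide SDs of these 2 span the states, and libraries of the 2 ages overlapped. Peak 22 and its neighbour 23 were thus the Tox peaks that separated states in every arm and were also higher in aged hosts, peak 23 by 0.37 (limma, adjusted p = 0.012, and 0.054 without aged Tprog replicate 2).

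The Zfp219 and Dusp5 guides were each compared with the same OTC libraries, so the 2 sets of differences are not independent of each other. Zfp219 encodes a zinc-finger protein, and Dusp5 a nuclear phosphatase that acts on the kinase ERK. Averaged over the 4 states of aged hosts, Zfp219 cells had 6 lower and 0 higher Tox peaks and 1 lower and 1 higher Tox2 peak, where 25.8% of all peaks were called. In young hosts, over 3 states, 0 Tox peaks were lower and 4 higher, and 1 Tox2 peak was lower, with 7.07%. Dusp5 cells had 1 lower and 0 higher Tox peaks and 0 lower and 2 higher Tox2 peaks in aged hosts, with 12.2%, and 0 lower and 8 higher Tox peaks in young hosts, with 3.82%. Tox2 had 0 called peaks in young Dusp5 cells by limma, 4 at an unadjusted p under 0.05 and 0 by edgeR. The median difference over the Tox peaks was -0.12 for Zfp219 and 0.09 for Dusp5 in aged hosts, and 0.20 and 0.23 in young hosts. Over the Tox2 peaks it was 0.03 and 0.03 in aged and -0.10 and -0.15 in young hosts.

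In young hosts, Tox peak 8 in the middle of the gene was more open with each guide. It had 105 and 163 normalized reads in young Zfp219 Tprog and 127 and 149 in young Dusp5 Tprog, against 57.3 and 87.3 in OTC Tprog. In Ttran it had 182, 187 and 177 with Zfp219 and 142, 155 and 170 with Dusp5, against 98.0, 94.6 and 102 with OTC. In both states all guide libraries lay above all OTC libraries. By state, peak 8 was called in Tprog with each guide and in Ttran with Zfp219 alone. Both Tprog calls were lost in some alternative settings. In young Tterm no Tox peak was called with either guide by limma. Over 3 states the rise was 0.65 ± 0.12 with Zfp219 (limma, adjusted p = 5.2e-05) and 0.61 ± 0.12 with Dusp5 (adjusted p = 0.00037), called without any single library. Peak 11 was higher by 0.36 with Zfp219 and by 0.48 with Dusp5 (limma, adjusted p = 0.00032 for Dusp5). Peak 16 (chr4:6882642-6883565) was higher by 0.39 with Zfp219 (limma, adjusted p = 0.019, lost in 4 of 16 single-library omissions with up to 0.1) and by 0.47 with Dusp5 (adjusted p = 0.0059). Peak 9 (chr4:6838022-6839027) was higher by 0.52 ± 0.16 with Dusp5 (limma, adjusted p = 0.038), a call lost in 9 of 16 such omissions (up to 0.21) and with quantile normalization. Tox2 peak 3 was lower with Zfp219 by a difference of -0.25 ± 0.07 (limma, adjusted p = 0.017), lost in 4 of 16 omissions (up to 0.056).

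In aged hosts the Zfp219 guide went with less open Tox peaks 22 and 23. Peak 22 was lower by a difference of -0.49 ± 0.10 over 4 states (limma, adjusted p = 6.8e-05) and peak 23 by -0.40 (adjusted p = 0.0045), called without any single library. In Ttad cells peak 22 had 154 and 137 normalized reads with Zfp219 against 201 and 297 with OTC and 303 and 286 with Dusp5, and peak 23 had 168 and 130 with Zfp219 against 221 and 304 with OTC. Zfp219 and OTC libraries did not overlap at either peak. These Ttad differences were -0.74 ± 0.20 (limma, adjusted p = 0.01) and -0.81 ± 0.22 (adjusted p = 0.012), and both were lost without OTC Ttad replicate 2 or Zfp219 Ttad replicate 2, with adjusted p of up to 0.28 and 0.22. Peak 20, the second strongest of Tox, was lower by a difference of -0.19 over the states (limma, adjusted p = 0.0061), and Tox peak 1 by -0.42 ± 0.15 (adjusted p = 0.026, lost in 5 of 16 omissions with up to 0.16 and with quantile normalization). Tox2 peak 3 was lower by a difference of -0.22 ± 0.07 (limma, adjusted p = 0.013, and 0.073 without Zfp219 Tterm replicate 1). With Dusp5 peak 20 was lower by a difference of -0.18 ± 0.06 (limma, adjusted p = 0.02), a call lost without Dusp5 Tterm replicate 2 (adjusted p = 0.054), with quantile normalization and in the compared groups alone. In Tterm alone it had 359 and 331 with Dusp5 against 504 and 500 with OTC, a difference of -0.54 ± 0.11 (limma, adjusted p = 0.001, and 0.052 without Dusp5 Tterm replicate 2).

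The distal Tox2 peak 1 rose with Zfp219 in aged transitory and terminal cells and with Dusp5 in aged transitory cells. In aged Ttran it had 280 and 250 normalized reads with Zfp219 and 225 and 221 with Dusp5, against 102 and 151 with OTC. In aged Tterm it had 172 and 184 with Zfp219 and 171 and 128 with Dusp5, against 105 and 93.5. No guide library overlapped the OTC libraries in these 2 states. The Zfp219 rise in Ttran was 1.08 ± 0.21 (limma, adjusted p = 5.3e-05), and over 4 states it was 0.56 ± 0.10 (adjusted p = 9.1e-06), each called without any single library. In Tterm the Zfp219 rise was 0.84 (limma, adjusted p = 0.007), lost without OTC Tterm replicate 2 or either Zfp219 library (up to 0.11). In Ttran the Dusp5 rise was 0.83 (limma, adjusted p = 0.0079), lost without OTC Ttran replicate 1 or either Dusp5 library (up to 0.23) and in the compared groups alone. The aged Zfp219 Ttran values reached the range of 243 to 302 of young OTC Ttran. With Dusp5 the rise over 4 states was 0.33 ± 0.10 (limma, adjusted p = 0.021), lost in 5 of 16 omissions (up to 0.099), and Tox2 peak 2 rose by 0.20 ± 0.06 (adjusted p = 0.025), lost in 7 of 16 (up to 0.13). Both of these Dusp5 calls over the states were also lost in a fit of the compared groups alone.

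State by state, few members were called for either guide. For Zfp219 in aged hosts Tprog had 0 called peaks of either gene by limma (3 at an unadjusted p under 0.05, 0 by edgeR) with 2.56% of all peaks called. Ttran had 1 higher Tox and 1 higher Tox2 peak with 14.2%, Tterm 2 lower Tox peaks and 1 higher Tox2 peak with 3.57%, and Ttad 2 lower Tox peaks with 8.23%. In young hosts Tprog had 1 higher Tox peak with 0.997%, Ttran 5 higher Tox peaks with 5.88%, and Tterm 0 by limma (2 unadjusted, 0 by edgeR) with 0.275%. For Dusp5 in aged hosts Tprog had 0 (2 unadjusted, 0 by edgeR) with 0.83%, Ttran 2 higher Tox and 2 higher Tox2 peaks with 3.8%, Tterm 1 lower Tox peak with 4.11%, and Ttad 0 (2 unadjusted, 0 by edgeR) with 2.88%. In young hosts Tprog had 1 higher Tox peak with 0.782%, Ttran 4 higher Tox peaks with 0.646%, and Tterm 0 by limma (5 unadjusted, 1 by edgeR) with 0.273%.

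**Figure D5:**
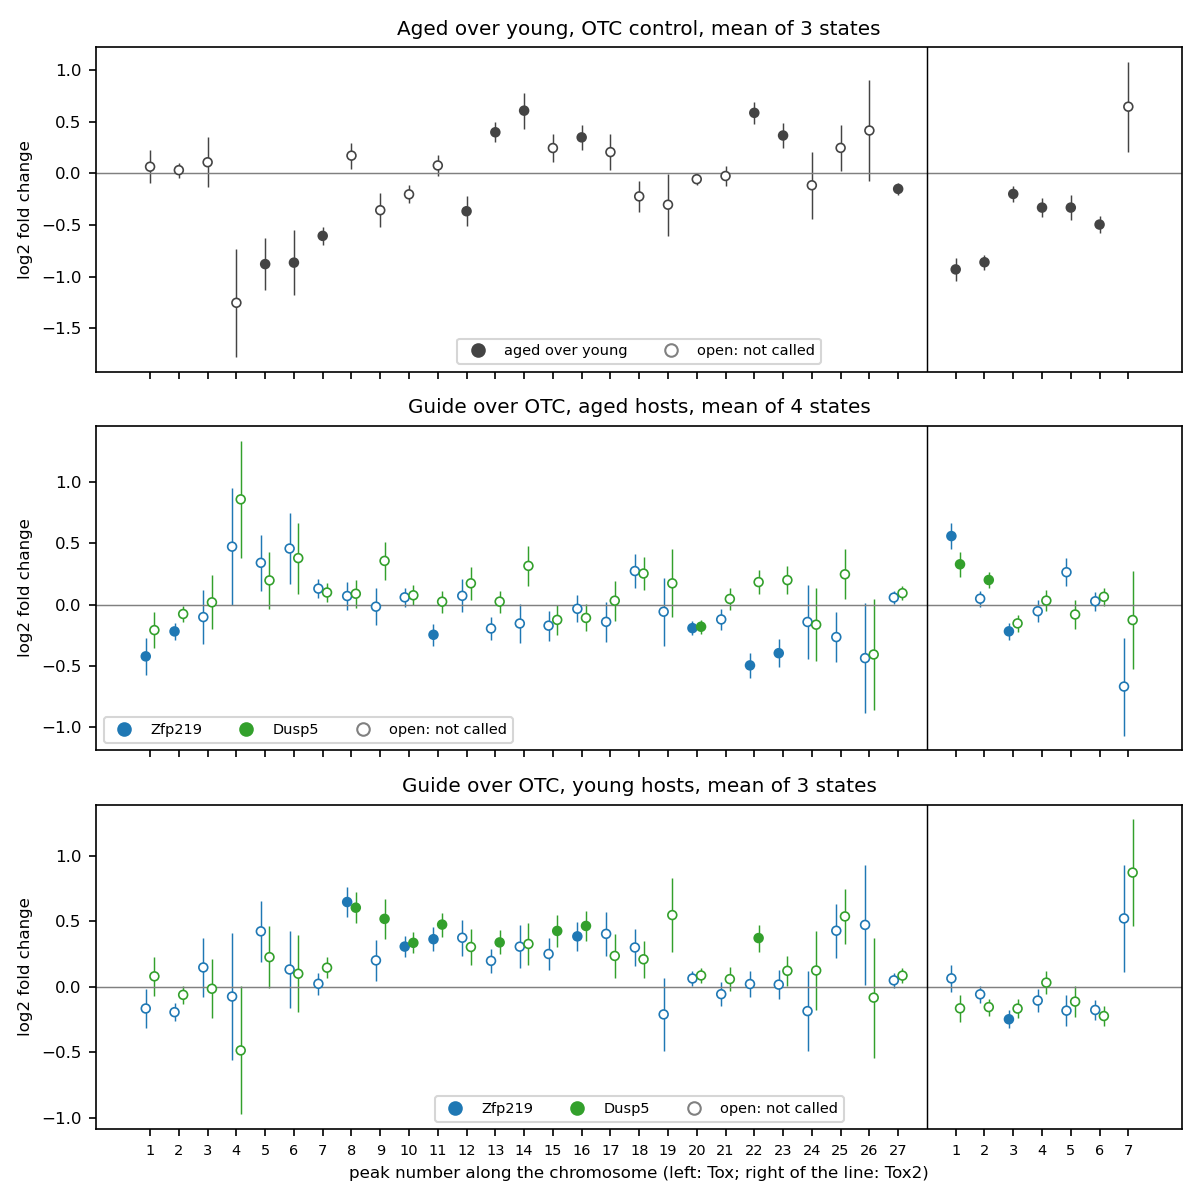
Difference in log2(normalized reads + 1) (y axes, with bars of ± SE) at each of the 34 peaks (x axis), with filled symbols where called. It is shown for aged over young OTC cells, and for each guide over OTC in aged and in young hosts. Tox2 peaks 1 and 2 lie at -0.93 and -0.86 for age, and Tox peak 8 at 0.65 and 0.61 for the 2 guides in young hosts.

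Whether a guide's difference itself changed with host age was tested over the 3 states both ages have. For Zfp219, 3 Tox peaks had a lower and 0 a higher difference in aged than in young hosts, and 1 Tox2 peak a higher one, where 9.11% of all peaks were called. For Dusp5 it was 1 lower Tox peak and 2 higher Tox2 peaks, with 4%. At Tox peak 11 the Zfp219 difference was -0.17 in aged and 0.36 in young hosts (limma, adjusted p = 0.0068 for their difference). At Tox2 peak 1 it was 0.72 and 0.07 (limma, adjusted p = 0.0029), and at Tox2 peak 2 the Dusp5 difference was 0.29 and -0.15 (adjusted p = 0.0023).

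The other genes of the setting give a frame for these values. A list of 11 genes of the TOX family and its inducers, with 101 peaks and with no peak assigned to a further member, Tox3, had 11 higher and 16 lower peaks in aged OTC Tprog against Tterm (26.7% against 20.1% of all) and 22 higher and 16 lower in young ones (37.6% against 26.5%). Within it Nr4a1, an orphan receptor gene induced by T cell receptor signals, had 4 and 6 of 6 peaks higher in Tprog, with medians of 0.51 and 0.54. Egr2, another early response gene, had 5 of 7 peaks lower in aged Tprog, and 2 lower and 1 higher in young Tprog. A list of 13 exhaustion genes with 133 peaks had more lower than higher peaks in Tprog, with 10 higher and 49 lower in aged cells (median -0.26) and 16 and 44 in young cells (median -0.20). In it Entpd1, which encodes the ectonucleotidase CD39, had 9 and 10 of 12 peaks lower, and Havcr2, which encodes Tim-3, 4 and 5 of 5. Eomes, a T-box factor gene, went the other way with 3 higher and 1 lower of 14 in aged (median 0.31) and 2 and 1 in young cells (median 0.25), and Ikzf2 had 2 higher and 0 lower of 15 in aged and 3 and 1 in young cells. A list of 11 progenitor genes with 137 peaks had more higher than lower peaks, with 61 higher and 11 lower in aged cells (median 0.57) and 84 and 6 in young cells (median 0.82). There Tcf7, the gene of the progenitor factor TCF1, had 8 and 10 of 12 peaks higher, and Slamf6, 5 and 6 of 6. Myb, also a transcription factor gene, had 2 higher and 5 lower of 14 at each age (medians -0.27 and -0.02). The Tox medians of 0.25 and 0.26 were above 0 like those of the progenitor list, but smaller. They were near those of Eomes in the exhaustion list. The Tox2 medians were 0.55 in aged and 0.10 in young cells. Tox and Tox2 are counted among exhaustion factors. Havcr2 and Slamf6 encode the sorting proteins. Their strongest peaks did not split along the gates alone: the Slamf6 peak had means of 545, 544, 492 and 342 normalized reads and the Havcr2 peak 554, 1280, 879 and 1281 in aged OTC Tprog, Ttran, Ttad and Tterm.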

How the data were processed

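ATAC-seq was read in 48 libraries. Judged from the values themselves, the deposited signal is reads per peak divided by 1 size factor per library, and 100% of the values came out as whole reads within 0.01 reads once that factor was undone. Bowtie2 2.2.9, Picard 2.8.0, SAMtools 1.3.1, MACS2 2.1.1, DESeq2 1.28.1 and build mm10 are named in the submitters' processing notes, without their roles. Peaks were one list for all libraries. From there, peaks were assigned to protein-coding genes of a RefSeq table (GRCm38.p6), and differences were fitted with limma 3.58.1 (R 4.3.3, trend, two-sided, 27 residual degrees of freedom) on log2(value + 1) over 53868 peaks, 48 libraries and 38 contrasts, with Benjamini-Hochberg adjustment. The code was tested on simulated data.

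Groups came from the labels. Alternatives were a pseudocount of 8, leaving out the weakest 25% of peaks, quantile normalization, the compared groups alone, edgeR 4.0.16 (quasi-likelihood, TMM) on whole reads, a replicate block, peaks over gene bodies only, each library left out, and Spearman for likeness. A group left with 1 library was taken to vary like the others.

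Named peaks are, per gene, the strongest, the promoter or boundary peak, and the called peaks with the largest differences, up to 2 per direction in the comparisons of OTC states, age and guide, and up to 2 per gene in the guide by age tests. Others are named where a sentence needs them, chosen after their values were seen. The peaks and gene lists were chosen with earlier results of these data known. Exons, strand of the genes and a Tox promoter window were not used here.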

Additional observations from a re-analysis of the deposited data

Results flagged for a closer look

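At 7 pairs of a peak and a guide, the difference between guide and OTC differed between aged and young hosts by a test of that difference (limma, adjusted over all peaks). For Zfp219 these were 4 of 34 peaks (11.8%), near the 9.11% of all peaks called. For Dusp5 they were 3 of 34 (8.82%), where 4% of all peaks were called. The value given is the aged difference minus the young one, in log2 units. For Zfp219 it was -0.53 ± 0.14 at Tox peak 11 (-0.17 in aged, 0.36 in young hosts, adjusted p = 0.0068) and 0.65 ± 0.16 at Tox2 peak 1 (0.72 and 0.07, adjusted p = 0.0029), both called without any single library. At Tox peak 13 (chr4:6867723-6869731) it was -0.42 (-0.22 and 0.20, adjusted p = 0.042), lost in 18 of 28 single-library omissions, and at Tox peak 20 -0.27 (-0.21 and 0.06, adjusted p = 0.029), lost in 7 of 28. For Dusp5 it was 0.44 ± 0.10 at Tox2 peak 2 (0.29 and -0.15, adjusted p = 0.0023), called without any single library. It was 0.57 at Tox2 peak 1 (0.40 and -0.16, adjusted p = 0.021), lost without aged Dusp5 Tterm replicate 1, aged OTC Ttran replicate 1 or young OTC Tprog replicate 1 (adjusted p of up to 0.11). At Tox peak 16 it was -0.54 (-0.08 and 0.47, adjusted p = 0.047), lost in 18 of 28. Both guides were compared with the same OTC libraries. Aged and young libraries are numbered separately in the headers, and the part of that in these values cannot be told apart from host age.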

How the results depend on the processing

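Of 196 calls of a Tox or Tox2 peak, 71 held in every alternative in which they were tested, none changed direction, and 125 were lost without some library. Calls that held were 191 with edgeR, 194 with a pseudocount of 8, 176 with quantile normalization, 182 with the replicate block, 161 in the compared groups alone and 181 with the weakest 25% of peaks left out, where the other calls were not tested.

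Counts of called peaks, both genes together, moved by over 1.5 times in these cases. In the compared groups alone, which leave fewer samples for the spread, they were 0 for Ttad over Tterm, 1 for Ttad over Tprog, 3 for Ttad over Ttran, 4 for age in Ttran, 1 for Zfp219 in aged Ttran, 0 in young Tprog and 2 in young Ttran. For Dusp5 they were 0 in aged Ttran, 0 over the aged states, 0 in young Tprog, 1 in young Ttran and 1 in young Tterm, with 5 for Dusp5 by age and 1 for state by age. A pseudocount of 8 gave 1 for Zfp219 in aged Ttran. Quantile normalization gave 1 for Zfp219 in aged Tterm, 0 in young Tprog and 3 in young Ttran, and 1 for Dusp5 in young Ttran. Peaks over gene bodies alone, fewer peaks by construction, gave 1 for Zfp219 in aged Ttran and 5 over the aged states, and for Dusp5 2 in aged Ttran, 1 over the aged states and 1 by age. edgeR gave 1 for Dusp5 in young Tterm and 1 for state by age. In the compared groups alone, counts rose for Dusp5 in young Tterm, Dusp5 by age and state by age, and fell in the other cases. For the compared groups alone, quantile normalization, the pseudocount and edgeR the cause was not tested.

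With replicate numbers as a block, counts were 1 for Zfp219 in aged Ttran, 0 in young Tprog and 2 for Dusp5 in young Ttran. Whether the numbers pair the libraries is not given in the labels used here. Over 57 pairs with the same number, deviations from group means had r from -0.0148 to 0.0170 (median -0.0014), none over 0.1. No shared deviation was thus seen, which does not show that the libraries were unpaired. In groups of 2 the deviations mirror each other. Each aged value therefore appears for both replicate numbers, and the 57 are not all separate values.

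Leaving out each library in turn gave counts of 3 to 8 for aged OTC Tprog over Tterm, 1 to 2 for Ttran over Tterm, 5 to 6 for Ttran over Tprog, and 0 to 1, 0 to 3 and 1 to 3 for Ttad over Tterm, Tprog and Ttran. In young OTC cells they were 3 to 4 for Ttran over Tterm and 6 to 11 for Ttran over Tprog. For Tprog over Tterm they fell to 7 with Zfp219 and ran from 9 to 15 with Dusp5 in aged and from 5 to 9 with Dusp5 in young cells. For age they were 1 to 3 in Tprog, 3 to 7 in Ttran and 4 to 8 in Tterm. For Zfp219 they were 1 to 2, 0 to 1 and 0 to 2 in aged Ttran, Tterm and Ttad, 0 to 1 and 2 to 6 in young Tprog and Ttran, 3 to 6 over the young states and 2 to 6 by age. For Dusp5 they were 0 to 2 in aged Ttran, 0 to 2 in aged Tterm, 1 to 3 over the aged states, 0 to 1 and 1 to 2 in young Tprog and Ttran, 4 to 9 over the young states and 1 to 5 by age. State by age gave 0 to 1.

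Pools of 2 or 3 limit every comparison, and weak peaks such as Tox peak 26 and Tox2 peak 7 rest on few reads in Tterm. Without a genome of the build, exons and a Tox promoter, the place of body peaks within the genes was not analysed here.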

Other observations

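Among 6392 genes with at least 3 peaks, the summed levels that most resembled Tox over the 21 group means were those of Nrn1 (Pearson r 0.89), Slc22a15 (0.88), Car2 (0.87), Ttc7b (0.87) and St7 (0.87). For Tox2 they were Gss (0.90), Bag3 (0.89), Rbm47 (0.89), Hsp90aa1 (0.88) and Gipr (0.87). Bag3 and Hsp90aa1 encode a co-chaperone and a form of the chaperone HSP90. These genes were picked for their likeness, and the points share libraries and normalization.

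Peaks of one gene did not move as a block. Over the 21 group means the 351 pairs of Tox peaks had a median Pearson r of 0.38, from -0.63 to 0.94, and the 21 pairs of Tox2 peaks a median of 0.47. Among the 189 pairs of a Tox with a Tox2 peak the lowest value, -0.77, was between Tox peak 23 and Tox2 peak 5 (chr2:163232058-163232632).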
